A study of Mus musculus with 100 samples.

Results

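The 44 genes described here encode the glutathione and antioxidant enzymes of mouse fat, together with the main switch that controls many of them. They were taken as a list of names, and each was found by mapping the Ensembl transcript rows of the 5 deposited matrices to gene symbols. All 44 were found among 32153 genes with a chosen transcript. By role the list held 14 glutathione S-transferases, 5 glutathione peroxidases, 5 genes of glutathione supply, 7 genes of the peroxiredoxin cycle, 5 of the thioredoxin system, 4 of superoxide and peroxide removal and 4 of the NRF2 axis.

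The series set fat of mice labelled as lacking Gps2 in adipocytes beside fat labelled wild type, on chow, on high fat diet and after stimulation of beta-adrenergic receptors. GPS2 belongs to the corepressor complex built on NCoR and SMRT. Polyadenylated RNA was sequenced in stranded libraries, and each table below is 1 deposited matrix. The CD table, which by elimination is the chow group, held 3 knockout and 3 wild type replicates of intra-abdominal fat at 19 weeks of age. The HFD table, named for 4 weeks of diet, held 4 knockout and 4 wild type replicates of intra-abdominal fat at 11 weeks. The Epi table, named for 12 weeks of diet, held 3 knockout and 3 wild type replicates of intra-abdominal fat at 19 weeks. The Adipo table, also named for 12 weeks of diet, held 2 knockout and 3 wild type replicates of intra-abdominal adipocytes at 19 weeks, and its knockout sample 3 is not analysed here. The BA table held 4 knockout and 4 wild type replicates of inguinal fat at 8 weeks, with no agent or dose of beta-adrenergic stimulation given in the labels. Every sample, wild type included, carries the strain label Adipoq-Cre-Gps2flox/flox, and the genotype stands only in the titles, so whether wild type mice carried Cre or floxed alleles is not told. Adipoq-Cre drives recombination in adipocytes, and the other cells of a fat pad keep the gene. Whether replicates are separate animals is not in the labels, and so the p-values below reflect no more than how far these samples lay apart, which may be technical variation.

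Glutathione is a tripeptide that donates electrons to peroxidases and is joined to reactive lipids and foreign compounds by the glutathione S-transferases. Its synthesis starts with glutamate-cysteine ligase, and the oxidised form is returned to the reduced form by glutathione reductase with NADPH. The transcription factor NRF2, held in check by KEAP1, binds antioxidant response elements near many of these genes, and fat cells use the pathway to clear lipid peroxides and their aldehyde products.

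The promoters of 4 genes on which the results below turn are shown to let the antioxidant response element be seen in its sequence. The sequences are from RefSeq on GRCm38.p6 and cover 250 bases before to 50 bases after a start of transcription, 5′ to 3′ on the strand of the gene. The core element searched was TGACNNNGC on both strands, where N is any base, and a match is in capitals. The windows are chr1:21240335-21240634 on the plus strand for Gsta3, chr2:152105274-152105573 on the plus strand for Srxn1, chr4:57956362-57956661 on the minus strand for Txn1 and chr11:54902604-54902903 on the plus strand for Gpx3.
Gsta3: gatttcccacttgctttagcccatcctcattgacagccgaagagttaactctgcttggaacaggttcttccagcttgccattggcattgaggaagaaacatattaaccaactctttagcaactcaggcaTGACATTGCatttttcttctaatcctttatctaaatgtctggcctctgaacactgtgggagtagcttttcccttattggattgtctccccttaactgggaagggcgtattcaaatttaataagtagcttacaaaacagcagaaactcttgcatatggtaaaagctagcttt
Srxn1: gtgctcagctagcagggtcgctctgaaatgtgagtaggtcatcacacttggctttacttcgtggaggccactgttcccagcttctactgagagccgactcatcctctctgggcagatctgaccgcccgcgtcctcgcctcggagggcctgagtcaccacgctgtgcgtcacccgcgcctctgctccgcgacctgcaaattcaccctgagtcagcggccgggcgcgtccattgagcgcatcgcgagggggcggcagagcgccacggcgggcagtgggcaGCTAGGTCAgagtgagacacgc
Txn1: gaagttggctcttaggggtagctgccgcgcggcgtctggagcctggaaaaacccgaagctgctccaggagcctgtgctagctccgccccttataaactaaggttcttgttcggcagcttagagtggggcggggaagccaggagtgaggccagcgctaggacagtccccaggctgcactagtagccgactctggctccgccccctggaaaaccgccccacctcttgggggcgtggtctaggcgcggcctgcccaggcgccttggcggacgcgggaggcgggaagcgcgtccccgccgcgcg
Gpx3: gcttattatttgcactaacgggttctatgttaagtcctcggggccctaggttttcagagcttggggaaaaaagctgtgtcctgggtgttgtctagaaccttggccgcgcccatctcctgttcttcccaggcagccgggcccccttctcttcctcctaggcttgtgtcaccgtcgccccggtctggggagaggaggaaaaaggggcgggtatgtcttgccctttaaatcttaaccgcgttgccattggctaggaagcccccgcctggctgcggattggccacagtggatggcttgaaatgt

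In Gsta3 the match began at position -121 from the start and lay on the strand of the gene. In Srxn1 it began at position 28, on the opposite strand. The windows of Txn1 and Gpx3 held no match, which says only that these letters are not in these windows. RefSeq's start was the first base of the transcript counted here for Txn1 and lay downstream of that base for Gpx3. Windows were found for 38 of the 44 genes, and 9 of the 38 (23.7%) held a match. Over all 27025 genes with windows 14% held a match in any of their windows, and over all 32851 windows 12.4% did. The other 7 genes with a match were Gstm7, Mgst1, Gclm, Prdx1, Txnrd1, Sod1 and Nfe2l2. A match is a description of the sequence and not a bound site. Gsta4, Gclc, Gsr, Prdx6, Sod3 and Hmox1 had no window.

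Values are read counts that the authors scaled by size factors, called normalised values below, and folds are log2 of knockout over wild type after adding 1. A gene was tested in a table where its mean was at least 10, and a change was called where the p-value of limma, adjusted by Benjamini-Hochberg over all genes of the table, was under 0.05. Replicates held 29342792 to 63232066 reads. All 8 adipocyte markers examined were at 10 or more in every replicate. In CD their summed values were 619831.6 to 933867.0 in knockout, and 616387.6, 246894.8 and 726050.4 in wild type. The part of wild type 2, the lowest, in the CD differences was not tested. The Gps2 transcript was at 553 to 663 in knockout and 468 to 701 in wild type replicates of CD, and at 330.5 to 424 in knockout and 355 to 421 in wild type of HFD. In Epi its range was 1198 to 1387 in knockout and 1061 to 1494 in wild type, in Adipo 811 to 839 in knockout and 755 to 851 in wild type, and in BA 272 to 381 in knockout and 221 to 363 in wild type. Its mean was not lower in knockout in any table, but which exons were deleted is not told by the sources used, so this level checks nothing about the labels, and knockout below means labelled knockout. Some libraries stood apart by genes of another tissue. The 9 epididymis markers averaged 6.90, 6.87 and 0.72 as log2(value + 1) in CD knockout, against 1.13, 2.66 and 0.30 in wild type, and their summed values ran from 25.8 to 154407.7 in knockout and from 3.7 to 43738.0 in wild type. In Epi they averaged 0.00, 11.32 and 10.26 in knockout, against 0.82, 0.63 and 0.20 in wild type, with sums of 0 to 135298.3 in knockout and 1.8 to 27.3 in wild type. CD knockout 1 and 2 and Epi knockout 2 and 3 are called the libraries high in epididymis markers below. The 7 epithelial markers were high in the same CD libraries and in wild type 2, averaging 9.63, 9.71 and 1.31 in knockout and 3.53, 9.21 and 1.43 in wild type. CD knockout 1 and 2 were also more alike than any other pair of replicates. Their chi-square per degree of freedom was 2.55 to 3.07, against 54.7 to 348.6 for the other CD pairs and at least 5.67 for pairs of the other tables. Whether these 2 are separate animals is not in the labels. In CD the sums of 6 progenitor markers were 11611.3 to 12419.3 in knockout and 12479.3 to 17767.8 in wild type, and those of 6 skeletal muscle markers 88.8 to 208.3 in knockout and 290.5 to 5566.5 in wild type, and their part in the CD differences was not tested. In HFD no marker list was without overlap in its sum or mean. In bulk fat, fewer cells of a type and less RNA per cell cannot be told apart.

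Across the tables, few of the 44 genes passed the test in any 1 of them, and those that did were in HFD. In HFD 5 of 43 tested genes passed, where Gsta3, Gsta4 and Gclc rose and Gpx3 and Sod3 fell, against 3.47% of all 13946 genes tested. In CD none of 44 passed, where the background was 0% of 15467 genes, and 11 of the 44 had an unadjusted limma p under 0.05. In Epi none of 44 passed, with a background of 0% of 17513 genes and 8 at an unadjusted p under 0.05. In Adipo none of 43 passed, against 0.638% of 14105 genes, and 16 had an unadjusted p under 0.05. In BA none of 43 passed, against 0.0323% of 12377 genes, and 5 had an unadjusted p under 0.05. The count test of edgeR on recovered reads also called none in CD, Epi, Adipo and BA, with 12, 12, 15 and 5 at an unadjusted p under 0.05, and called 3 in HFD, namely Gsta3, Gsta4 and Gpx3. These unadjusted counts have no share of all genes beside them here. For CD and Epi the matching limma counts over all genes stand in the account of the processing. Nothing about the list is read from these member counts or from the unadjusted counts given further below. When the knockout effects of CD, HFD, Epi and BA were averaged in 1 fit, 5 of 43 genes rose and none fell, against 4.19% of 11823 genes passing in either direction. These were Gsta3, Gsta4, Gclc, Txn1 and Srxn1. Slc7a11 was under the minimum level in HFD, Adipo and BA and so in that fit.

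The direction of the whole list differed between tables. In CD 36 of 44 genes (81.8%) were higher in knockout, against 61.7% of all genes, with a median fold of 0.428 on the log2 scale against 0.109 over all genes. With TMM scaling, which brings the median over all genes to -0.005, 32 of 44 were higher and their median was 0.314. In HFD 19 of 43 genes (44.2%) were higher, against 36.9% of all genes, with a median of -0.083 against -0.086, and with TMM scaling the list's median was 0.003. In Epi 28 of 44 (63.6%) were higher, against 46.8% of all genes, with a median of 0.193 against -0.029. In Adipo 18 of 43 (41.9%) were higher, against 46.7%, with a median of -0.126 against -0.044. In BA 25 of 43 (58.1%) were higher, against 51.3%, with a median of 0.096 against 0.006. Without the libraries high in epididymis markers 31 of 43 were higher in CD, with a median of 0.394. In Epi 29 of 44 were then higher, with a median of 0.16. Those fits leave only knockout 3 in CD and knockout 1 in Epi, and no share of all genes is given for them. All counts of this paragraph describe the list and carry no test.

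**Figure D1:**
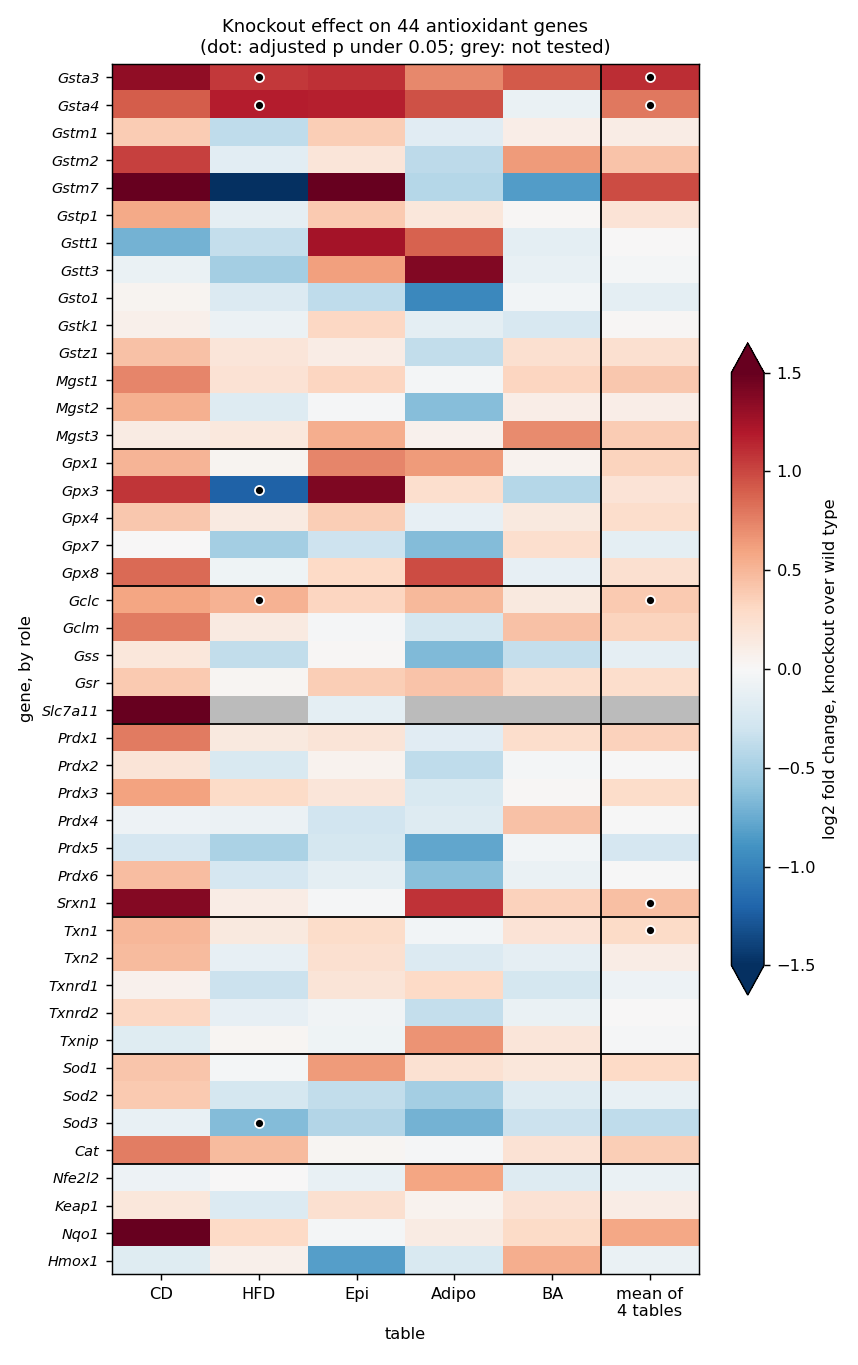
Knockout effect on each of the 44 genes (rows, grouped by role with lines between roles) in each table and in the mean of CD, HFD, Epi and BA (columns), as log2 fold change of knockout over wild type on a color scale that ends at 1.5 in either direction. A dot marks an adjusted p under 0.05 and grey marks a gene under the minimum level. Gsta3 was red in every column, while Gpx3 was blue in HFD and red in CD and Epi.

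Another way to read the list is to ask how many genes had knockout and wild type replicates that did not overlap. In CD 14 of 44 genes lay wholly higher in knockout, against 12.4% of all genes, and none lay wholly lower, against 4.54%. The 14 were Cat, Gclc, Gpx8, Gsr, Gsta3, Gsta4, Gstp1, Prdx1, Prdx2, Prdx3, Sod2, Srxn1, Txn1 and Txn2. These CD counts take knockout 1 and 2, which were much alike, as separate replicates, and include wild type 2 with its low adipocyte markers. In HFD 4 of 43 genes lay wholly higher, against 4.03% of all genes, and 6 of 43 wholly lower, against 10%. The 4 were Cat, Gclc, Gsta3 and Gsta4, and the 6 were Gpx3, Gpx7, Gstm7, Prdx5, Sod3 and Txnrd1. In Epi 7 of 44 genes lay wholly higher, against 7.29% of all genes, and 2 of 44, Hmox1 and Sod3, wholly lower, against 9.16%. The 7 were Gpx1, Gpx3, Gstp1, Gstt1, Keap1, Sod1 and Txn1. In Adipo, with only 2 knockout replicates, 10 of 43 genes lay wholly higher, against 20.8% of all genes. There 14 of 43 lay wholly lower, against 27.3%. In BA 1 of 43 genes, Gsta3, lay wholly higher, against 3.26% of all genes, and none wholly lower, against 2.23%.

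Among the glutathione S-transferases, the 2 alpha-class genes rose and the other classes did not pass the test in any table. Gsta3 encodes an alpha-class transferase and lies at chr1:21240589-21265661 on the plus strand of GRCm38, with 7 exons in the transcript counted. In HFD its normalised values were 5513, 7856, 7315 and 6517 in knockout, against 2877, 3413, 3492 and 3138 in wild type. Every knockout replicate was above every wild type replicate. The mean was 6800.2 ± 1019.6 in knockout and 3229.8 ± 280.2 in wild type (SD, n = 4 each), a log2 fold of 1.07 ± 0.13 (SE, adjusted p = 0.00468). The call held in each of 18 alternative fits, with an adjusted p of at most 0.0246.

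Gsta3 was also higher on average in the other 4 tables, without passing there. In CD it was at 4974, 4882 and 8804 in knockout, against 1994, 1452 and 4609 in wild type, a log2 fold of 1.33 ± 0.48 (adjusted p = 0.516). In BA it was at 7455, 3185, 3880.2 and 3715 in knockout, against 3008, 2285, 2538 and 1519.8 in wild type, a log2 fold of 0.92 ± 0.29 (adjusted p = 0.322). The groups did not overlap in either table. In BA the mean log2(value + 1) of 8 adipocyte markers was 14.78 to 15.11 in knockout and 14.23 to 14.69 in wild type, without overlap. Their summed values overlapped, at 414317.9 to 617485.0 in knockout and 353621.1 to 424238.6 in wild type. The summed values of 6 T cell markers were 299.0 to 467.1 in knockout and 83.1 to 188.1 in wild type, without overlap. The mean log2(value + 1) of these T cell markers overlapped, at 4.46 to 5.29 in knockout and 3.73 to 4.64 in wild type. The part of both lists in the BA differences was not tested. In Epi Gsta3 was at 22063, 10703 and 16208 in knockout, against 7926, 12798 and 3911 in wild type, a log2 fold of 1.09 ± 0.46 (adjusted p = 0.546). In Adipo it was at 16466 and 10731 in knockout, against 9026, 13407 and 4312 in wild type, a log2 fold of 0.72 ± 0.49 (adjusted p = 0.397). In both of these tables wild type 2 lay above 1 knockout replicate. The mean effect over CD, HFD, Epi and BA was 1.10 ± 0.20 (adjusted p = 0.002) and was 1.37 ± 0.25 (adjusted p = 0.00313) without the 4 libraries of high epididymis markers.

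Gsta4 encodes the alpha-class transferase known for conjugating 4-hydroxynonenal, an aldehyde product of lipid peroxidation, and lies at chr9:78182774-78209349 on the plus strand. In HFD it was at 793, 875, 858 and 835 in knockout, against 284, 352, 436 and 434 in wild type. The lowest knockout replicate was well above the highest wild type replicate. The mean was 840.4 ± 35.4 in knockout and 377 ± 72.9 in wild type (SD, n = 4 each), a log2 fold of 1.18 ± 0.14 (adjusted p = 0.00403), called in each of 18 alternative fits. In CD it was at 702, 734 and 1131 in knockout, against 349, 413 and 608 in wild type, a log2 fold of 0.91 ± 0.28 (adjusted p = 0.504). Epi gave 2429, 2134 and 1499 in knockout, against 1122, 1524 and 399.9 in wild type, a log2 fold of 1.17 ± 0.49 (adjusted p = 0.541). The groups were separate in CD and overlapped in Epi, where wild type 2 lay just above knockout 3. Adipo gave 2358 and 1459 in knockout, against 1239, 1757 and 402 in wild type, a log2 fold of 0.95 ± 0.63 (adjusted p = 0.386). In the inguinal fat of BA Gsta4 was at 1575, 1326, 778 and 955 in knockout, against 1199, 1219, 1255 and 1118 in wild type, a log2 fold of -0.10 ± 0.20 (adjusted p = 0.935). There the knockout replicates lay on both sides of the wild type ones. The knockout effect in HFD minus that in BA was 1.28 ± 0.50, which did not pass (adjusted p = 0.451). The mean effect over 4 tables was 0.79 ± 0.19 (adjusted p = 0.0157) and held in all 39 alternative fits.

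**Figure D2:**
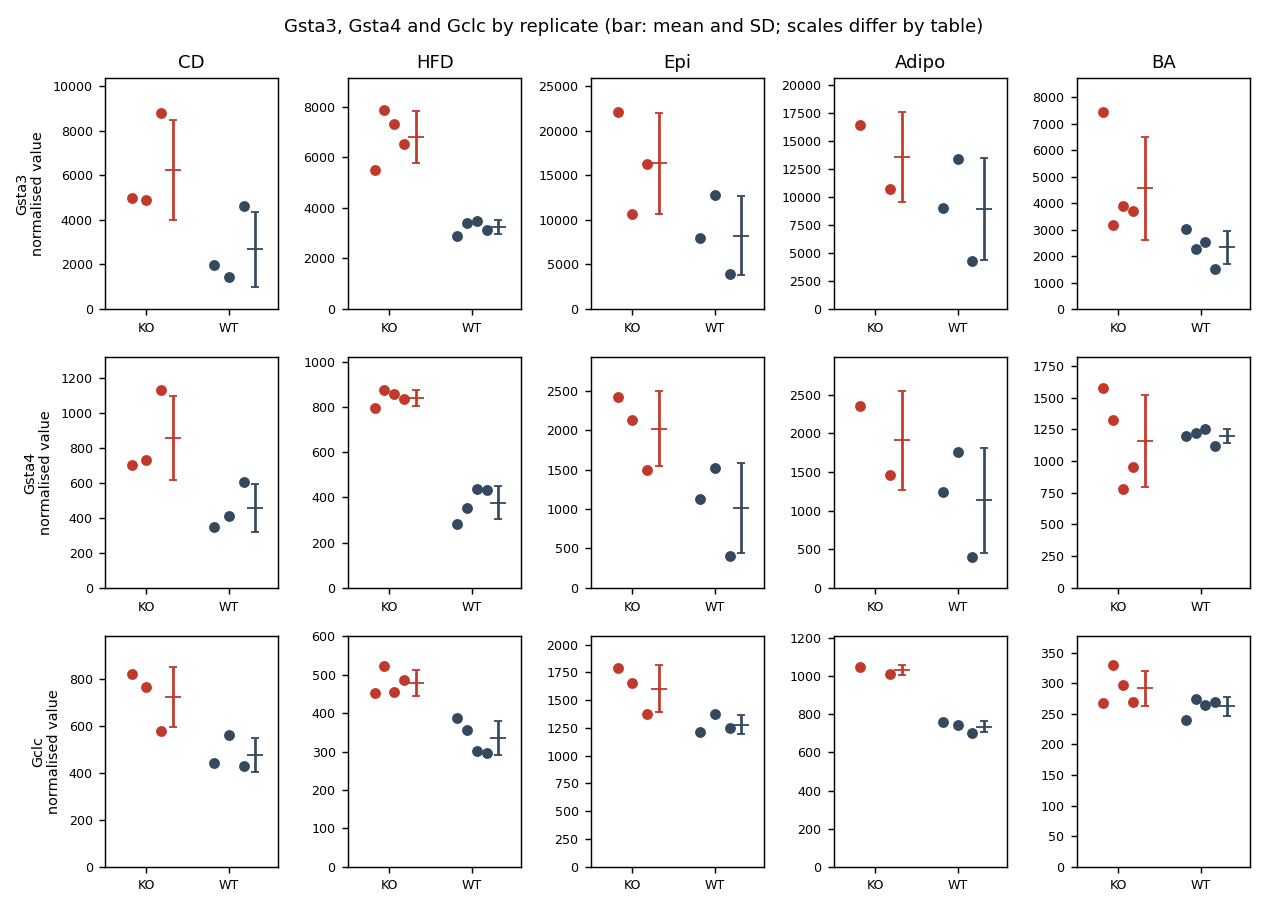
Normalised values (vertical axes from 0, scale set per panel) of Gsta3, Gsta4 and Gclc in each replicate (points) of the labelled knockout (KO, left) and wild type (WT, right) in the 5 tables, with bars for mean and SD. In HFD the 4 knockout replicates of each gene lie above all 4 wild type replicates, for Gsta3 at 5513 to 7856 against 2877 to 3492.

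The mu-class gene Gstm7 had its highest values in CD and Epi where the epididymis markers were high. It lies at chr3:107926334-107931817 on the minus strand. In CD its values were 13269, 13427 and 99.7 in knockout, against 106, 114 and 112 in wild type. In Epi they were 187, 7372 and 623 in knockout, against 309, 215 and 273 in wild type. The high values of these 2 tables were those of the 4 libraries high in epididymis markers. In HFD Gstm7 was at 59.8, 88.8, 71.8 and 63.3 in knockout, against 879.8, 103, 162 and 172 in wild type, a log2 fold of -1.67 ± 0.55 (adjusted p = 0.133). In BA its values were 136, 63.7, 60.7 and 67.5 in knockout, against 154, 136, 143 and 124 in wild type, a log2 fold of -0.84 ± 0.24 (adjusted p = 0.274). Both tables had lower knockout means, HFD without overlap, and the high wild type 1 of HFD also had the highest epithelial markers of its table, at 5.99 against 2.37 to 3.54 in the other 7 replicates. In CD the fold was 4.55 ± 1.92 (adjusted p = 0.52), and it was -0.15 ± 0.37 (adjusted p = 0.989) without CD knockout 1 and 2. Without CD knockout 3 it was 6.90 ± 0.11 (adjusted p = 0.000483). Without wild type 1 the HFD fold was -1.01 ± 0.21 and passed (adjusted p = 0.0262).

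The remaining transferases gave smaller or less uniform differences. Of all 14 transferases, with Gsta3, Gsta4 and Gstm7 among them, 12 were higher in CD with a median of 0.487. In Epi 12 were higher with a median of 0.381, and in HFD 5 were higher with a median of -0.149. With TMM scaling the numbers in CD, Epi and HFD were 10, 12 and 6. Without the libraries high in epididymis markers 9 were higher in CD and 13 in Epi. Those fits leave only knockout 3 in CD and knockout 1 in Epi. In Adipo 6 of 14 were higher, or 7 with TMM scaling, and in BA 8 of 14, or 7 with TMM scaling. Gstt1, of the theta class, was at 3293, 4245 and 6261 in Epi knockout, against 2589.8, 2099 and 1209.5 in wild type, a log2 fold of 1.24 ± 0.34 (adjusted p = 0.42). In CD the same gene was at 744, 777 and 1121 in knockout, against 1605, 804 and 2222 in wild type, a log2 fold of -0.71 ± 0.40 (adjusted p = 0.556). The groups were separate in Epi and overlapped in CD. Gstt3, of the same class, was at 265 and 245 in Adipo knockout, against 119, 105 and 71.6 in wild type, a log2 fold of 1.39 ± 0.30 (adjusted p = 0.0911). Of its transcript 26% of 50-base words are shared with other genes and 27.9% of its exon bases overlap another gene, so its count is uncertain.

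Gsto1, the omega-class enzyme that also reduces dehydroascorbate, had the smallest p of the list in Adipo. It was at 2454 and 3003 in knockout, against 5417, 4709.8 and 5906 in wild type, a log2 fold of -0.97 ± 0.17 (adjusted p = 0.0674). Mgst2, a membrane-bound member, was at 751 and 695 in Adipo knockout, against 976, 1124 and 1313 in wild type, a log2 fold of -0.64 ± 0.16 (adjusted p = 0.106). Both genes lay wholly below wild type. Gstp1, of the pi class, was at 1182, 1301 and 921 in CD knockout, against 719.8, 838 and 727 in wild type (log2 fold 0.56 ± 0.17, adjusted p = 0.504). Epi gave 2555, 2235 and 2829 in knockout, against 1825, 2098 and 1862 in wild type (0.39 ± 0.13, adjusted p = 0.471). It was wholly higher in both tables, and 62.3% of its 50-base words occur in other genes. In BA the membrane-bound Mgst3 was at 2796, 2324, 2082 and 2420.2 in knockout, against 2013, 2160.3, 1165 and 914 in wild type (0.71 ± 0.26, adjusted p = 0.44). Gstm2, of the mu class, was there at 1224, 1018, 1404 and 1126 in knockout, against 1068, 1024, 740.1 and 408 in wild type (0.64 ± 0.28, adjusted p = 0.528). In each of these 2 genes wild type 3 and 4 were the lowest samples. Over Gstm1, Gstk1, Gstz1 and Mgst1, no table gave a called change.

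Among the glutathione peroxidases, Gpx3 fell in HFD and had higher knockout means in CD, Epi and Adipo. Gpx3 encodes the secreted selenium-dependent peroxidase of plasma, which fat also makes, and lies at chr11:54902453-54910377 on the plus strand. In HFD it was at 4958, 5573, 4691 and 4927 in knockout, against 12906, 6915, 13053 and 15724 in wild type. All 4 knockout replicates were below the lowest wild type replicate, wild type 2. The mean was 5037 ± 377 in knockout and 12149.6 ± 3722 in wild type (SD, n = 4 each), and Gpx3 fell by 1.21 ± 0.23 on the log2 scale (adjusted p = 0.0239). The call ended when any of knockout 1 to 4 or wild type 3 was left out, with an adjusted p of 0.0509 to 0.085, and the fold stayed between -1.46 and -1.07 over all 18 alternative fits.

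Elsewhere Gpx3 did not pass. In CD it was at 84151, 86387 and 8614 in knockout, against 19400.3, 13939 and 24899.6 in wild type, a log2 fold of 1.07 ± 0.94 (adjusted p = 0.699). In Epi it was at 13161, 34990.2 and 25593 in knockout, against 9379.8, 10416 and 6585 in wild type, a log2 fold of 1.40 ± 0.37 (adjusted p = 0.407). The 4 highest knockout values came from the 4 libraries high in epididymis markers. Without those libraries the fold was -1.13 ± 0.55 in CD (adjusted p = 0.989) and 0.61 ± 0.31 in Epi (adjusted p = 0.582), with 1 knockout replicate left in each that is assumed to vary like the wild type. Without CD knockout 3 it was 2.17 ± 0.34 in CD (adjusted p = 0.04). In Adipo it was at 4389 and 9606 in knockout, against 8738, 7174 and 2567 in wild type (0.26 ± 0.60, adjusted p = 0.819). BA gave 3329, 4855, 2793 and 5639 in knockout, against 8642, 8536, 4117 and 2723 in wild type (-0.42 ± 0.38, adjusted p = 0.834). The groups overlapped in both. The effect in HFD minus that in Epi was -2.61 ± 0.82 (adjusted p = 0.188), and in HFD minus CD it was -2.28 ± 0.82 (adjusted p = 0.127), so neither difference passed. Without CD knockout 3 the difference between HFD and CD was -3.39 ± 0.64 (adjusted p = 0.000952), and without the libraries high in epididymis markers it was -0.08 ± 0.74 (adjusted p = 0.97).

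**Figure D3:**
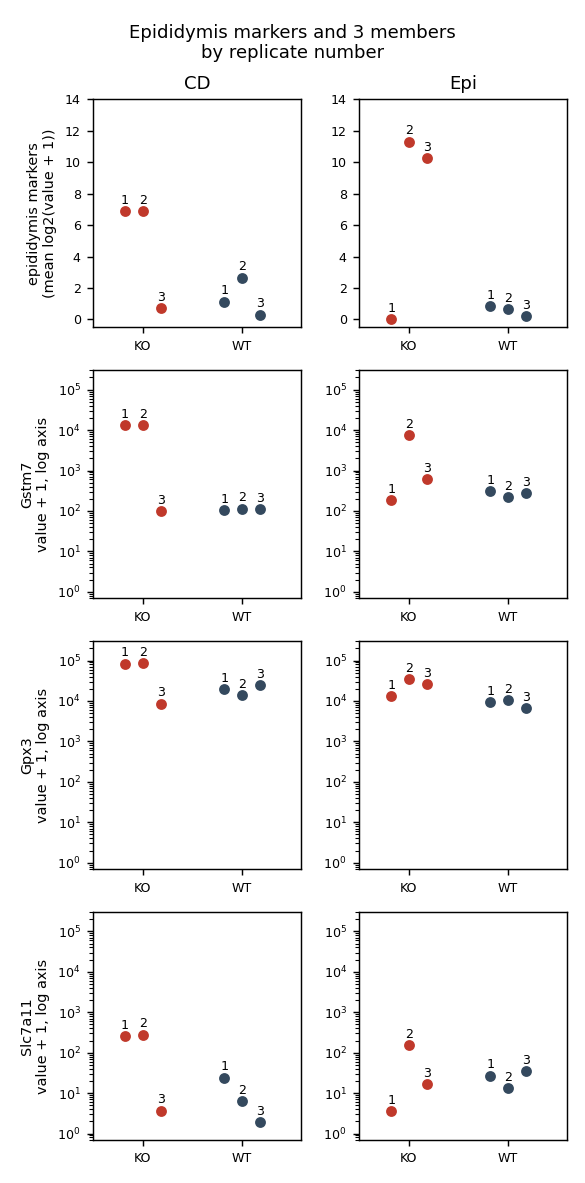
Mean log2(value + 1) of 9 epididymis markers (top row) and, on log axes, value + 1 of Gstm7, Gpx3 and Slc7a11 in the replicates (points, numbered) of labelled knockout (KO, left) and wild type (WT, right) in CD and Epi. Knockout 1 and 2 of CD and knockout 2 and 3 of Epi are high in the markers, and the highest Gstm7 and Gpx3 values of each table, such as 13269 and 13427 for Gstm7 in CD, are in those libraries.

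Of the other peroxidases, Gpx1, Gpx4 and Gpx8 had higher knockout means in CD and Epi without passing, while Gpx7 had log2 folds of 0.00 in CD and -0.31 in Epi. Gpx1, the abundant intracellular selenoenzyme, was at 65035, 36921 and 48241 in Epi knockout, against 31960.5, 29945 and 26473 in wild type, a log2 fold of 0.73 ± 0.23 (adjusted p = 0.453). Gpx8, a peroxidase of the endoplasmic reticulum without selenium, was at 647, 630.4 and 606 in CD knockout, against 387, 262 and 414 in wild type, a log2 fold of 0.85 ± 0.20 (adjusted p = 0.504). Neither pair of groups overlapped. Gpx7, a relative of Gpx8 in the same compartment, was at 367, 399, 444 and 422 in HFD knockout, against 483, 479.7, 594 and 825 in wild type, a log2 fold of -0.51 ± 0.17 (adjusted p = 0.128). In Adipo Gpx8 was at 642 and 598 in knockout, against 427, 271 and 264 in wild type, while Gpx7 was at 552 and 631 in knockout, against 982, 750.0 and 1079 in wild type. The 2 genes thus lay on opposite sides of wild type in adipocytes, with adjusted p = 0.106 for Gpx8 and 0.131 for Gpx7. Gpx4, which reduces lipid hydroperoxides within membranes, had log2 folds between -0.13 and 0.40 over the tables, and 61.7% of its 50-base words occur in other genes.

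In glutathione supply, the catalytic subunit of glutamate-cysteine ligase moved and its partner did not pass. Gclc encodes that subunit, which sets the pace of glutathione synthesis, and lies at chr9:77754535-77794485 on the plus strand, with 16 exons. In HFD it was at 452, 522, 454 and 486 in knockout, against 388, 355, 301 and 297 in wild type. The groups did not overlap. The mean was 479 ± 32.8 in knockout and 335 ± 44.1 in wild type (SD, n = 4 each), a log2 fold of 0.52 ± 0.11 (adjusted p = 0.0352). The call ended when any replicate other than wild type 1 was left out, with an adjusted p of 0.0522 to 0.122, while the fold stayed between 0.46 and 0.59. In CD Gclc was at 825, 768 and 581 in knockout, against 443, 563 and 431 in wild type (0.59 ± 0.19, adjusted p = 0.504). In Adipo it was at 1049.8 and 1014 in knockout, against 757, 746 and 704 in wild type (0.49 ± 0.12, adjusted p = 0.105). Both were wholly higher in knockout. In Epi it was at 1787, 1651 and 1377 in knockout, against 1214, 1379 and 1247 in wild type (0.32 ± 0.14, adjusted p = 0.547), where knockout 3 and wild type 2 were level. BA gave 268, 330.2, 297 and 269.5 in knockout, against 241, 275, 264 and 269 in wild type (0.15 ± 0.11, adjusted p = 0.78). Averaged over CD, HFD, Epi and BA, Gclc rose by 0.39 ± 0.06 (adjusted p = 0.000592), the smallest p of the 43 genes in that fit, and held in all 39 alternative fits.

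Gclm, the modifier subunit, did not pass in any table. In BA its values were 919, 747, 736 and 651 in knockout, against 503, 516, 683 and 545 in wild type (0.44 ± 0.14, adjusted p = 0.338). Only wild type 3 reached into the knockout range. In CD Gclm was at 1141, 1083 and 571 in knockout, against 377, 723 and 510.5 in wild type (0.78 ± 0.36, adjusted p = 0.529), and the fold was 0.14 ± 0.43 without knockout 1 and 2, the libraries high in epididymis markers. Gsr, glutathione reductase, was at 826, 775 and 802 in CD knockout, against 602, 527 and 714 in wild type (0.39 ± 0.15, adjusted p = 0.516), and at 598, 659, 597 and 637 in HFD knockout, against 575, 541, 642 and 698 in wild type (0.03 ± 0.10, adjusted p = 0.899). Gss, glutathione synthetase, was at 676 and 947 in Adipo knockout, against 1302, 1248 and 1240.2 in wild type (-0.66 ± 0.17, adjusted p = 0.11), and 14.1% of its exon bases overlap another gene. Slc7a11, the cystine importer, was at 258, 278 and 2.69 in CD knockout, against 23.2, 5.38 and 0.9 in wild type. In Epi it was at 2.65, 153 and 15.4 in knockout, against 26.1, 12.4 and 33.5 in wild type. Its 3 highest values were in libraries high in epididymis markers, and in HFD, Adipo and BA it was at 12.3 or less in every replicate.

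Of the peroxiredoxins and sulfiredoxin, only Srxn1 passed, in the mean over 4 tables. Sulfiredoxin repairs peroxiredoxins that have been overoxidised by peroxide, and Srxn1 lies at chr2:152105516-152111376 on the plus strand. In CD it was at 2036, 2105 and 858 in knockout, against 558, 619 and 602 in wild type (1.38 ± 0.36, adjusted p = 0.504). In Adipo it was at 2347 and 4081 in knockout, against 1089, 1462 and 1950.3 in wild type (1.08 ± 0.33, adjusted p = 0.137). Knockout lay wholly higher in both. In BA it was at 1730.0, 1146, 988 and 1250.3 in knockout, against 784, 815, 1358 and 1083 in wild type (0.35 ± 0.22, adjusted p = 0.718). In HFD it was at 484, 750.1, 622 and 587 in knockout, against 582, 542, 523 and 583 in wild type (0.12 ± 0.13, adjusted p = 0.617), and in Epi at 2584, 2106 and 2258 in knockout, against 1917, 2335 and 2816 in wild type (-0.01 ± 0.17, adjusted p = 0.989). These 3 tables overlapped. The mean over CD, HFD, Epi and BA rose by 0.46 ± 0.13 (adjusted p = 0.0422), a call lost with CD knockout 1 and 2 as 1 replicate. That call was lost in 19 of 28 fits that each left out 1 replicate, with an adjusted p of 0.0518 to 0.102, and the mean was 0.29 (adjusted p = 0.303) without the 4 libraries high in epididymis markers. Without CD knockout 3 the CD fold was 1.80 ± 0.12 (adjusted p = 0.00563), and without CD knockout 1 and 2 it was 0.53 ± 0.24 (adjusted p = 0.989).

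The knockout means of 4 peroxiredoxins were higher in CD, where Prdx4, an enzyme of the endoplasmic reticulum, and Prdx5 had log2 folds of -0.07 and -0.25, and all 6 had lower knockout means in Adipo, none passing. In CD Prdx1, a cytosolic enzyme, was at 8359, 8115 and 10985 in knockout, against 5351, 4384 and 6233 in wild type (0.78 ± 0.22, adjusted p = 0.504). The mitochondrial Prdx3 was there at 2589.9, 2465 and 3118 in knockout, against 1555, 1747 and 2064 in wild type (0.61 ± 0.17, adjusted p = 0.504). Neither pair overlapped. In Adipo Prdx5, found in mitochondria, peroxisomes and cytosol, was at 9690.2 and 11757 in knockout, against 18258, 16649.5 and 20267 in wild type (-0.78 ± 0.17, adjusted p = 0.0933). Prdx6, which also reduces phospholipid hydroperoxides, was at 17750.0 and 17934 in Adipo knockout, against 24744, 24861 and 34349 in wild type (-0.63 ± 0.20, adjusted p = 0.147). Of the 7 genes of this cycle, 6 were lower in Adipo knockout, all but Srxn1, with a median of -0.227 and the same count with TMM scaling. Counts of Prdx1, Prdx2 and Prdx5 are uncertain, since 10.9% of the 50-base words of Prdx1 and 8.96% of those of Prdx2 occur in other genes and 32.4% of the exon bases of Prdx5 overlap another gene.

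Endothelial and mesothelial markers also had higher values in the Adipo knockout replicates. The summed values of 6 endothelial markers were 27584.3 and 11560.1 in knockout, against 2860.9, 1625.2 and 3011.5 in wild type, and those of 6 mesothelial markers were 973.8 to 1489.3 in knockout, against 128.1 to 620.1 in wild type. The sums of 8 macrophage markers overlapped, at 8657.8 and 3305.6 in knockout, against 1823.7, 1295.6 and 16073.4 in wild type, as did those of 6 T cell markers, at 90.0 and 61.2 in knockout, against 78.7, 74.1 and 621.1 in wild type. Every difference in Adipo given in this report, of members and of other genes, stands beside the endothelial and mesothelial difference. The part of that difference in them was not tested.

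In the thioredoxin system, Txn1 rose in the mean over 4 tables. Thioredoxin reduces peroxiredoxins and other protein disulfides, and Txn1 lies at chr4:57943373-57956411 on the minus strand. In CD it was at 3345, 3355 and 3691 in knockout, against 2356, 2229.8 and 2782 in wild type (0.50 ± 0.15, adjusted p = 0.504). Epi gave 8027, 7094 and 6884 in knockout, against 5754, 6423 and 5986 in wild type (0.28 ± 0.12, adjusted p = 0.551). Knockout lay wholly higher in both. In HFD it was at 2539, 2822, 2807 and 2678 in knockout, against 2166, 1961, 2638 and 3150.3 in wild type (0.15 ± 0.14, adjusted p = 0.558). In BA it was at 2682, 2307, 1832 and 2353 in knockout, against 2169.8, 2416, 1729 and 1652 in wild type (0.21 ± 0.17, adjusted p = 0.807), and both of these tables overlapped. The mean rose by 0.28 ± 0.07 (adjusted p = 0.0221). The call ended in 1 of 39 alternative fits, that without Epi knockout 1 (adjusted p = 0.0576). In the adipocytes of Adipo, which are not in that mean, Txn1 was at 5386 and 4854 in knockout, against 5146, 5058 and 5535 in wild type (-0.04 ± 0.13, adjusted p = 0.888). Txn2, the mitochondrial thioredoxin, the reductases Txnrd1 and Txnrd2 and the thioredoxin inhibitor Txnip passed in no table. Txnrd1 was at 743, 981, 720.2 and 846 in HFD knockout, against 1033, 1002, 1051 and 1009 in wild type (-0.33 ± 0.11, adjusted p = 0.128), without overlap.

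Among the enzymes of superoxide and peroxide removal, extracellular superoxide dismutase fell in HFD. Sod3 encodes that secreted enzyme and lies at chr5:52363791-52371418 on the plus strand. In HFD it was at 5899, 8678, 7604 and 7289 in knockout, against 11660.4, 10831, 10276 and 13459.9 in wild type. The groups did not overlap. The mean was 7368 ± 1145 in knockout and 11557 ± 1390.5 in wild type (SD, n = 4 each), and Sod3 fell by 0.66 ± 0.14 on the log2 scale (adjusted p = 0.0398). The call held without knockout 2 and without wild type 1 and ended when any of the other 6 replicates was left out, with an adjusted p of 0.059 to 0.127. In Epi Sod3 was at 20965, 21355 and 26159 in knockout, against 31262, 28188 and 32856 in wild type (-0.44 ± 0.16, adjusted p = 0.492). In Adipo it was at 17221 and 25035 in knockout, against 36006, 30379 and 36119 in wild type (-0.71 ± 0.22, adjusted p = 0.137). Knockout lay wholly lower in both. BA gave 4166, 3162, 2982 and 3490.3 in knockout, against 4123, 3836, 4408 and 4809 in wild type (-0.32 ± 0.15, adjusted p = 0.565), and CD gave 3013, 2977 and 3874 in knockout, against 5891, 1887 and 3919 in wild type (-0.11 ± 0.42, adjusted p = 0.936). The mean over CD, HFD, Epi and BA was -0.38 ± 0.12, which did not pass (adjusted p = 0.0605) and passed with TMM scaling.

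**Figure D4:**
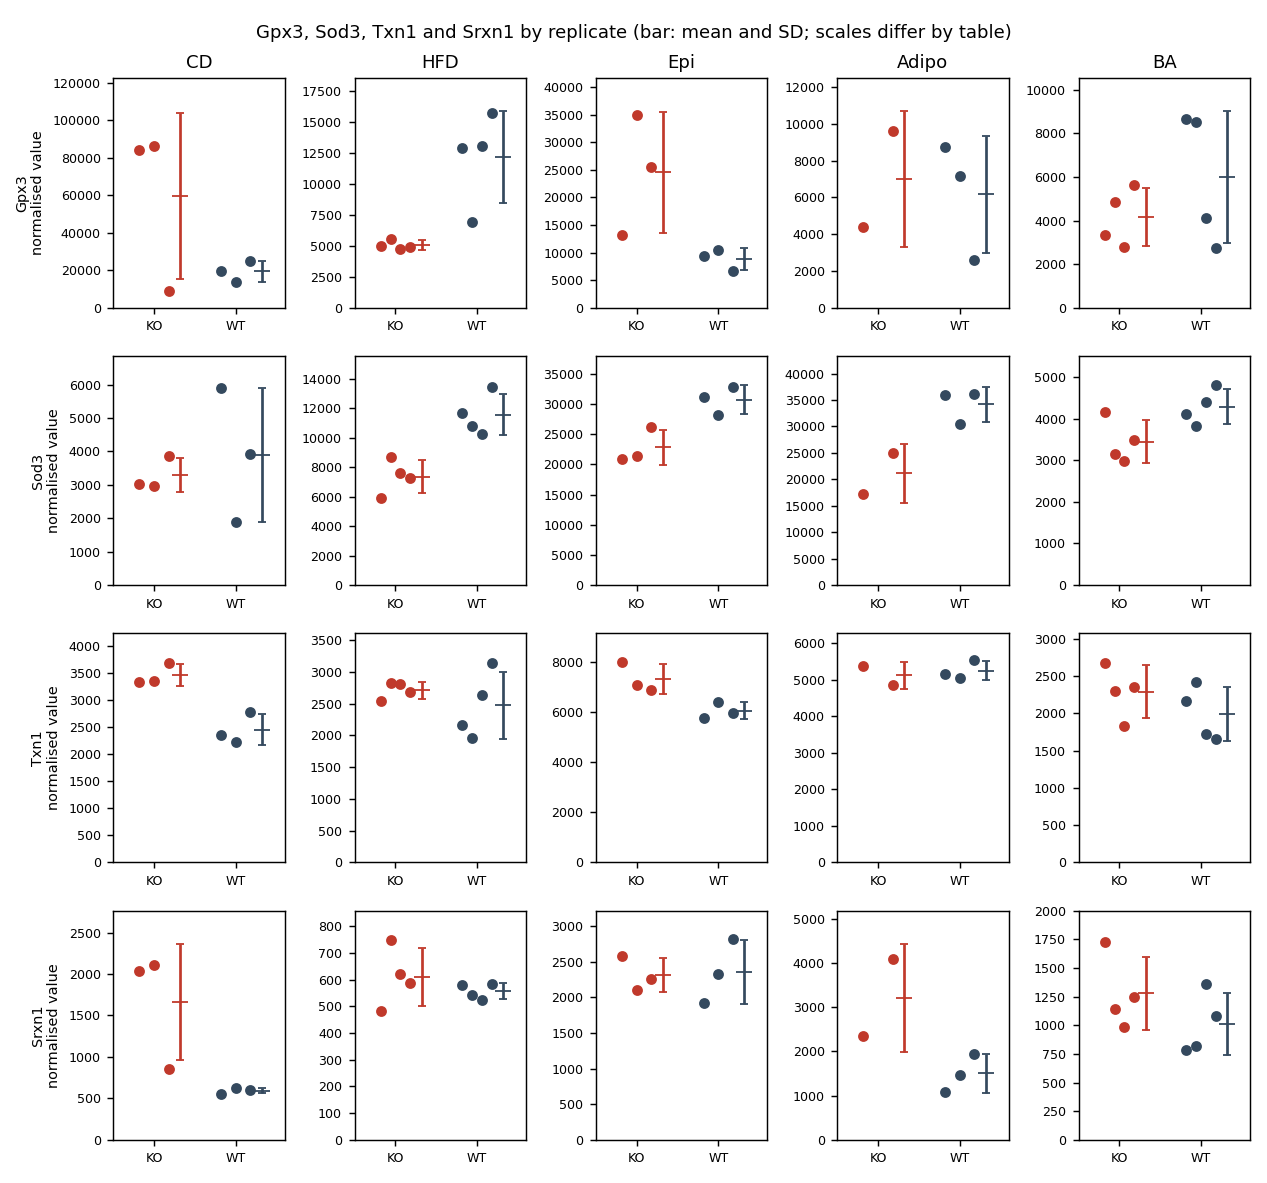
Normalised values (vertical axes from 0, scale set per panel) of Gpx3, Sod3, Txn1 and Srxn1 in each replicate (points) of labelled knockout (KO, left) and wild type (WT, right) in the 5 tables, with bars for mean and SD. In HFD the knockout replicates of Gpx3, at 4691 to 5573, lie below all wild type replicates, and those of Sod3, at 5899 to 8678, lie below all wild type replicates as well.

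Catalase stood just outside the threshold. Cat, whose enzyme breaks down hydrogen peroxide in peroxisomes, was at 16536, 19600.3, 20043 and 18759.9 in HFD knockout, against 12379.8, 15413, 14146 and 12296 in wild type (0.47 ± 0.12, adjusted p = 0.0703). The groups did not overlap. The cytosolic Sod1 was at 30176, 18197 and 19177 in Epi knockout, against 15258, 15518 and 11729.9 in wild type (0.64 ± 0.23, adjusted p = 0.497), and the mitochondrial Sod2 was at 8745, 6731 and 8344 in Epi knockout, against 7753, 9539.7 and 14393 in wild type (-0.37 ± 0.24, adjusted p = 0.666). Sod1 was separate between groups in Epi and Sod2 was not. In HFD Sod2 was at 2146, 2728, 2764 and 2501 in knockout, against 2163, 3277, 3382 and 3509 in wild type (-0.26 ± 0.16, adjusted p = 0.379). Without wild type 1, its low wild type replicate, the fold was -0.43 ± 0.11 and passed (adjusted p = 0.048).

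On the NRF2 axis, the knockout effect on the gene for NRF2 itself differed between adipocytes and whole fat. Some alternative fits lost this call. Nfe2l2 lies at chr2:75675513-75704641 on the minus strand. In Adipo it was at 2716 and 2659 in knockout, against 1877, 1491 and 2030.2 in wild type (0.59 ± 0.16, adjusted p = 0.119). In Epi it was at 3191, 3372 and 3549.8 in knockout, against 3334, 3432 and 4257 in wild type (-0.12 ± 0.13, adjusted p = 0.808). Knockout lay wholly higher in Adipo and overlapped in Epi. The effect in Adipo minus that in Epi was 0.71 ± 0.18 (adjusted p = 0.0142), and Nfe2l2 was the only member of 43 to pass there, against 5.13% of 11823 genes. The call ended without Epi wild type 3 (adjusted p = 0.0547), without Adipo knockout 1 (0.101), without Adipo wild type 2 (0.0655) and without the libraries high in epididymis markers (0.0545). It stands beside the endothelial markers given for Adipo, whose part was not tested. In CD Nfe2l2 had a log2 fold of -0.08 ± 0.12, in HFD 0.01 ± 0.10 and in BA -0.20 ± 0.11, with overlap in each.

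NRF2's sensor Keap1 had log2 folds of -0.21 to 0.24 over the tables and passed in none. Nqo1, a quinone reductase widely used as a marker of NRF2 activity, was at 907, 884 and 137 in CD knockout, against 93.6, 215 and 137 in wild type (1.77 ± 0.79, adjusted p = 0.529). The 2 high values were in the libraries high in epididymis markers, and the fold was -0.03 ± 0.57 without them and 2.67 ± 0.37 (adjusted p = 0.0316) without CD knockout 3. In HFD Nqo1 was at 79.1, 104, 116 and 99.8 in knockout, against 76.2, 81.8, 86.6 and 75.2 in wild type (0.30 ± 0.14, adjusted p = 0.254). Only knockout 1 fell within the wild type range. Hmox1, heme oxygenase, was at 1884, 1677 and 1610.2 in Epi knockout, against 2174, 2461 and 5353 in wild type (-0.83 ± 0.33, adjusted p = 0.526), without overlap and with wild type 3 far above the rest. The summed macrophage markers of Epi were 36275.8, 41192.7 and 86678.9 in wild type 1 to 3 and 35931.3 to 41704.2 in knockout. Wild type 3 was also the highest Epi replicate for Sod2 and Nfe2l2, and the part of its macrophage markers was not tested.

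The 3 other differences between tables that were tested gave 1 member in all. For HFD minus CD, Gstm7 passed at -6.22 ± 1.57 (adjusted p = 0.0424), 1 of 43 members against 1.61% of all genes, and 11 members had an unadjusted p under 0.05. Without the libraries high in epididymis markers it was -1.52 (adjusted p = 0.393), and it was lost in 10 of 14 fits that each left out 1 replicate. The median over all genes for this difference was -0.176, or 0.023 with TMM scaling, and the members' median was -0.424, or -0.224 with TMM scaling. For HFD minus Epi no member passed, against 0% of all genes, with 9 at an unadjusted limma p under 0.05. For HFD minus BA no member passed, against 0.00846% of all genes, with 5 at an unadjusted limma p under 0.05. These differences were fitted with limma alone. HFD minus CD, HFD minus Epi and HFD minus BA share the HFD samples.

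Of other genes in the pathway, few passed in any table. From 32 other glutathione genes none passed in any of the 5 tables, by limma, with 2 to 8 of the 24 to 28 tested at an unadjusted p under 0.05. The count test of edgeR called 1 of them, Oplah, 5-oxoprolinase of the glutathione cycle, in HFD, where limma gave 0.33 ± 0.10 (adjusted p = 0.0995). In the mean effect 1 of 24 passed, against 4.19% of all genes. That was Cbs, which starts the route from homocysteine to cysteine (1.06 ± 0.27, adjusted p = 0.0197). Without the libraries high in epididymis markers the mean effect on Cbs was 0.46 ± 0.26 (adjusted p = 0.364). In CD, where Cbs did not pass, its fold was 2.93 ± 0.94 (adjusted p = 0.504). From 28 other NRF2 targets and regulators 3 of 27 passed in HFD by limma, against 3.47% of all genes. Abcc1, an exporter of glutathione conjugates, rose by 0.54 ± 0.12 (adjusted p = 0.0385), Aox1, aldehyde oxidase, rose by 0.68 ± 0.15 (adjusted p = 0.0398), and Blvra, biliverdin reductase, fell by 0.64 ± 0.12 (adjusted p = 0.021). Of 18 alternative fits Abcc1 passed in 5, Aox1 in 9 and Blvra in 16, and leaving out 1 replicate ended the call of Abcc1 and of Aox1 in 6 of 8 fits each. In Adipo 1 of 28 passed, against 0.638% of all genes. This gene was Bach1, a repressor that competes with NRF2 for antioxidant response elements. Bach1 averaged 1662 ± 197 in knockout (SD, n = 2) and 333 ± 62.2 in wild type (SD, n = 3). The log2 fold was 2.33 ± 0.20 (adjusted p = 0.0172). That call ended in 4 of 5 fits that each left out 1 replicate, all but that without wild type 3, with an adjusted p of 0.0516 to 0.146, and the fold stayed between 2.17 and 2.45. The effect on Bach1 in Adipo minus that in Epi was 2.29 ± 0.30 (adjusted p = 3.31e-05). Maff, a small Maf protein and so a partner of both BACH1 and NRF2, passed in the same difference at 3.77 ± 0.70 (adjusted p = 0.000924). The Bach1 and Maff results stand beside the endothelial and mesothelial markers given for Adipo, whose part was not tested. In CD, Epi and BA no gene of this list passed, by limma or edgeR, with 5, 2 and 7 at an unadjusted p under 0.05 in either test.

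In the mean effect 4 of 27 genes of that list passed, against 4.19% of all genes. Sqstm1, Cbr3 and Ftl1 rose by 0.27 to 0.71 and Blvra fell by 0.47 ± 0.10 (adjusted p = 0.00567). Of 28 fits that each left out 1 replicate, the call of Sqstm1 was lost in 13, that of Cbr3 in 17, that of Ftl1 in 18 and that of Blvra in none. Without the libraries high in epididymis markers Cbr3 (adjusted p = 0.145) and Blvra (0.0551) did not pass. From 17 genes of NADPH supply and repair 1 passed in HFD by limma, against 3.47% of all genes. That was Idh2, the mitochondrial NADPH-forming isocitrate dehydrogenase, which fell by 0.58 ± 0.12 (adjusted p = 0.0343). It passed in 8 of 18 alternative fits and was lost in 6 of 8 that left out 1 replicate, with an adjusted p of 0.0517 to 0.127. The count test of edgeR called 3 of the 17 in HFD, namely Hmox2, Idh2 and Sesn1, and limma gave Hmox2 an adjusted p of 0.0515. In the other 4 tables none of the 17 passed, by limma or edgeR, with 1 to 7 at an unadjusted limma p under 0.05. In the mean over 4 tables Msrb3, a methionine sulfoxide reductase, fell by 0.40 ± 0.08 (adjusted p = 0.00354), Sesn3, a sestrin, fell by 0.30 ± 0.08 (adjusted p = 0.0216) and Nqo2, a quinone reductase, fell by 0.28 ± 0.08 (adjusted p = 0.0372). Leaving out 1 replicate ended the call of Nqo2 in 16 of 28 fits, that of Sesn3 in 3 and that of Msrb3 in none, and Nqo2 was at -0.21 ± 0.09 (adjusted p = 0.229) without the libraries high in epididymis markers. From 13 oxidant sources none passed in the 5 tables or in the mean, by limma, nor by edgeR in the tables, with 0 to 2 at an unadjusted p under 0.05. Nox4, an NADPH oxidase, passed in Adipo minus Epi at 2.61 ± 0.72 (adjusted p = 0.0284). The call stands beside the endothelial and mesothelial markers given for Adipo, whose part was not tested. It was lost in 6 of 19 alternative fits, among them 4 of the 10 that left out 1 replicate (adjusted p 0.0537 to 0.106) and the fit without the libraries high in epididymis markers (0.179). In Epi 12 of the 13 were lower in knockout, with a median of -0.40 against -0.029 over all genes.

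The levels of the 44 genes differ over a wide range, and per kilobase of transcript the highest in HFD were Gpx1, at 15300 ± 3920 in knockout and 15100 ± 5490 in wild type, Mgst1, at 13500 ± 603 in knockout and 11700 ± 1620 in wild type, and Sod1, at 12100 ± 1730 in knockout and 12600 ± 3490 in wild type (normalised value per kilobase, SD, n = 4 each). Next came Gstz1, which breaks down maleylacetoacetate, at 11200 ± 509 in knockout and 10000 ± 2010 in wild type, and Gpx4, at 8480 ± 1970 in knockout and 7800 ± 2240 in wild type. The replicates of knockout and wild type overlapped in each of these 5, and none passed the test. The lowest were Slc7a11, at 0.253 ± 0.105 in knockout and 0.116 ± 0.121 in wild type, Nqo1, at 64.2 ± 9.91 in knockout and 51.5 ± 3.43 in wild type, and Gclm, at 91.5 ± 5.66 in knockout and 83.4 ± 2.04 in wild type.

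**Figure D5:**
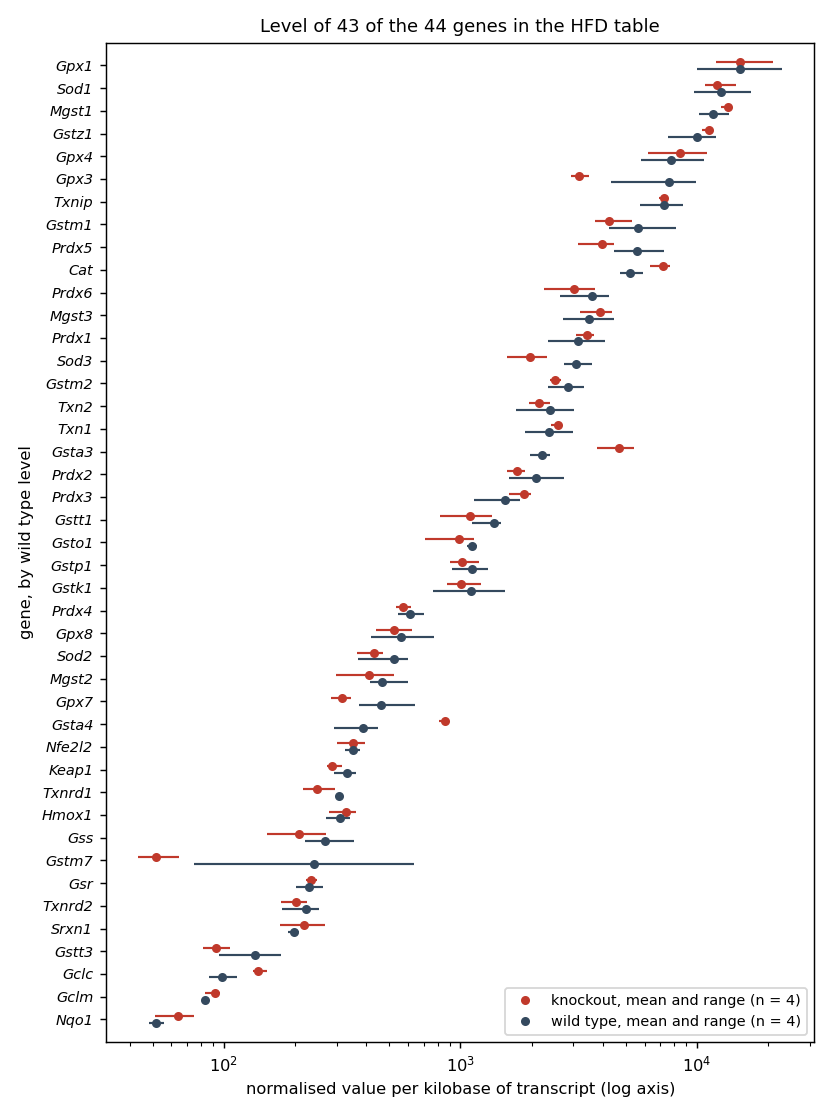
Normalised value per kilobase of transcript (log axis) of 43 of the 44 genes in HFD, ordered by wild type level, as mean (point) and range (line) of 4 knockout (upper, red) and 4 wild type (lower, blue) replicates. Slc7a11 is not drawn because its values include 0. For Gsta3 and Gsta4 the knockout range lies above the wild type range, and for Gpx3 and Sod3 it lies below.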

How the data were processed

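Messenger RNA of mouse fat and adipocytes was sequenced from TruSeq stranded libraries, per the labels' protocols. What the authors deposited is a signal for each Ensembl transcript, that is, read counts scaled by the size factor of the library. Tools in the submitters' processing notes are STAR 2.4.0k, HTSeq 0.5.3, DESeq 1.8.3, SAMtools and bcl2fastq 2.17, listed without a role, and the build is GRCm38.p4. No source used says whether reads were counted by strand. Samples were grouped by the tissue, age and genotype in their labels. Of 100 samples 99 were used, 1 column that matched no sample was not used, and the third Adipo knockout sample is not analysed here.

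In CD, HFD and BA the 4 libraries of each replicate differed about as much as sampling alone would give, and their values were averaged. One transcript was taken per gene, that of the highest mean, with names and coordinates from GENCODE M21. Of 97669 transcripts 698 had no gene and held 0.321% of the values. Values divided by their smallest step were whole for 100% of values within 0.01 of a read, and the whole numbers of 96 libraries were used as recovered reads and those of 3 were not.

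Within each table, log2(value + 1) of genes with a mean of 10 or more was tested with limma 3.58.1 (R 4.3.3), trended and robust, with Benjamini-Hochberg adjustment over all genes. One fit over the 5 tables gave the mean effect of CD, HFD, Epi and BA and the differences between tables. Adipo is left out of the mean since its numbers may mark the same animals as Epi. The test with edgeR 4.0.16 on recovered reads called 531 genes in HFD, 125 in Adipo, 1 in BA and none in CD and Epi, where limma called 484, 90, 4 and none in CD and Epi. Genes with an unadjusted limma p under 0.05 numbered 1487 in CD and 1613 in Epi. Of the HFD calls 141 rose and 343 fell, or 217 and 311 with TMM scaling. In CD the median fold of all genes was 0.109, or -0.005 with TMM scaling. The scripts were tested on simulated data. Intervals and errors cover the spread of the samples only.

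The 44 genes, the other lists and the markers were chosen with earlier results of these data known. Named are each gene that passed, the 5 of smallest p in each table, the 5 of highest and 3 of lowest level, up to 4 of each other list that passed and otherwise up to 2. Members named beside these were chosen after their values were seen. Alternatives were TMM scaling, pseudocounts of 0.5 and 5, no filter and a mean of 50, no moderation, sums over transcripts, edgeR, a replicate block and leaving out each replicate. Uncertain counts were judged from 50-base words shared with other genes. Protein sequences were not used here.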

Additional observations from a re-analysis of the deposited data

Results flagged for a closer look

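Of 88 groups of 4 replicates over 22 members, 5 held a replicate far from the other 3, where chance gives about 1 in 20. The gap to the nearest replicate as a share of the range was 0.87 for the highest Gstm7 value of BA knockout (136, against 60.7 to 67.5 in the other 3) and 0.884 for the highest Prdx3 value of BA knockout (9389, against 4301 to 4708), both of knockout 1. It was 0.838 for the lowest Prdx5 value of BA wild type (4269, against 4868 to 4993), 0.937 for the lowest Gstt1 value of HFD wild type (1158, against 1517 to 1545) and 0.853 for the highest Mgst2 value of HFD wild type (362, against 249 to 263). Without BA knockout 1, Gstm7 was called lower in BA, the only member called there.

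The knockout effect differed between tables by a test of the difference for Nfe2l2, at 0.71 for Adipo minus Epi, and for Gstm7, at -6.22 for HFD minus CD. The values of the libraries behind both stand above.

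In 4 members knockout lay wholly higher in CD and wholly lower in Adipo, and the difference was not tested. Prdx2 had log2 folds of 0.19 in CD and -0.38 in Adipo, Prdx3 0.61 in CD and -0.23 in Adipo, Txn2 0.47 in CD and -0.20 in Adipo, and Sod2 0.39 in CD and -0.52 in Adipo. Over all genes, 12.4% lay wholly higher in CD and 27.3% wholly lower in Adipo. The share of all genes that did both was not computed, so nothing about the list is read from these 4 members.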

How the results depend on the processing

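No called member changed direction under any alternative run. The 5 calls of HFD became 3 with edgeR, with no filter, without moderation and without wild type 1 and knockout 1 together, and 2 with a replicate block. The 5 calls of the mean over 4 tables became 8 with TMM scaling, where Prdx5 and Sod3 fell, and 11 with all 5 tables averaged. They became 4, without Srxn1, with no filter, sums over transcripts, a replicate block and CD knockout 1 and 2 as 1 replicate. Adipo gave 1 call with no filter, and the 1 call of HFD minus CD became 0 with no filter, TMM scaling, sums over transcripts, CD knockout 1 and 2 as 1 replicate, a replicate block and without the libraries high in epididymis markers. Without those libraries the 1 call of Adipo minus Epi also became 0. That alternative and the block over Epi and Adipo were added after seeing the data.

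Leaving out 1 replicate gave 0 to 4 calls in CD (4 without knockout 3: Gpx3, Gstm7, Nqo1 and Srxn1), 2 to 7 in HFD (7 without wild type 1, with Gstm7 and Sod2 also lower), 0 to 2 in Adipo (2 without wild type 3: Gstt3 and Gsto1) and 0 to 1 in BA (1 without knockout 1). It gave 3 to 11 in the mean over 4 tables (11 without CD knockout 3, 9 without CD wild type 2, 3 without Epi knockout 1), 0 to 7 in HFD minus CD (7 without CD knockout 3, 2 without HFD wild type 1) and 0 to 1 in Adipo minus Epi. In Epi, HFD minus Epi and HFD minus BA no setting changed the count of 0. Over all genes, calls ran from 268 to 531 in HFD, 0 to 1395 in Adipo, 1 to 7 in BA and 386 to 1599 in the mean over 4 tables across the other settings, and from 126 to 1166, 3 to 718, 0 to 9 and 302 to 810 with 1 replicate left out. CD gave up to 637 with 1 replicate left out.

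Whether equal replicate numbers pair knockout with wild type is not settled. The correlation of their deviations was under 0.1 for some number in every table. Its highest value was 0.528 in CD, 0.403 in Adipo, 0.366 in Epi, 0.289 in BA and 0.056 in HFD. Deviations were taken from the group mean of few replicates, and unequal numbers were not compared. The replicate block is therefore given only as an alternative. With it the count was 2 in HFD, 4 in Adipo (Gstt3, Nfe2l2 and Srxn1 higher, Gsto1 lower), 4 in the mean over 4 tables and 0 in CD, Epi and BA. For numbers shared by Epi and Adipo the correlation was 0.105 to 0.597, which does not settle whether they mark the same animals. With those numbers as a block, the limma difference of Nfe2l2 for Adipo minus Epi was 0.75 (adjusted p = 0.00948). The cause of these shifts was not tested. The few replicates limit what could be called, and Slc7a11 was too low to test in HFD, Adipo and BA.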
